A study of Homo sapiens and Mus musculus with 12 samples.

Results

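Homologous recombination (HR) and Fanconi anemia genes were followed across 12 polysome profiling libraries of the human melanoma line A375 and the mouse melanoma line Yumm1.7. The set holds 9 genes chosen by name: BRCA1, BARD1, BRCA2, RAD51AP1, RAD54L, FANCA, FANCD2, FANCI and BLM. All 9 were found by symbol in each table, among 16782 listed genes of A375 and 12711 of Yumm1.7. In polysome profiling a lysate is spun through a sucrose gradient, which sorts mRNAs by how many ribosomes they carry. Each line came in 2 states whose titles carry only the letters P and S. The series text names parental cells and drug-tolerant persister cells (cells that outlive a drug without stable resistance) but does not tie a letter to either, nor name the drug, dose or time, so the letters are kept. Per line and state there is 1 input library (RNA before the gradient), 1 monosome library (the 80S peak plus several fractions before it) and 1 polysome library (the 4 to 5 fractions at the bottom of the gradient). There are no replicates. No difference below could therefore be compared with a spread between samples, no p-value is given, and genes that follow each other in an order of levels cannot be told apart.

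HR repairs broken DNA by copying the intact sister chromatid, and is used mainly while cells replicate or after replication. BRCA1 with its partner BARD1 prepares broken ends and recruits BRCA2, which mediates the search for the template. RAD51AP1 and RAD54L help the broken strand invade it, and BLM is a helicase that resolves the joined molecules. The Fanconi pathway acts when a crosslink blocks a fork: a core complex that includes FANCA puts ubiquitin on FANCD2 and FANCI, which then call in nucleases and HR. These genes are commonly expressed with the cell cycle.

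Values are TPM, a read density per gene scaled to 1000000 per library. TPM is already per length, so levels can be set side by side between genes, but it keeps no read depth, and less RNA per cell cannot be told apart from fewer cells that express a gene. Differences are log2 differences of TPM + 1 taken relative to the median gene of the same comparison, over genes whose mean in their line reached 1 TPM (12638 in A375 and 10492 in Yumm1.7), and 2-fold on this scale was counted. For A375 the median gene itself shifted from P to S by -0.20 (input), 0.04 (monosomes) and -0.21 (polysomes). The shifts of the Yumm1.7 median gene were -0.94, -0.21 and -1.53. All 9 genes passed this minimum in both lines. In Yumm1.7, 8 of the 9 passed it only through P, since their mean over the S libraries was below 1 TPM, and in A375 BRCA2 and FANCD2 did so (0.409 and 0.331 TPM). Counts over the 9 therefore describe these genes and support nothing further.

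Libraries differed in ways that touch these values. In A375 the listed genes make up 66.6% to 90.1% of the 1000000 TPM, with 2.23% to 35.0% from mitochondrially encoded RNA. The Yumm1.7 tables hold 84.5% to 94.4%, with 1.90% to 21.5% mitochondrially encoded. Genes listed at 0 numbered 965 to 1581 in the Yumm1.7 S libraries against 276 to 336 in P. Of 8 melanocyte lineage markers, 6 were measured in A375 (259 to 586 TPM summed in P and 430 to 864 in S, MLANA and TYR not analysed here). In Yumm1.7 only 4 were (5.09 to 7.21 TPM in P and 0.571 to 2.53 in S), with Tyr, Tyrp1, Dct and Sox10 not analysed here, so the labelled cell type has little marker RNA in these files. Fibroblast markers summed to 182 to 389 TPM in Yumm1.7 P and 169 to 333 in S (7 of 8 measured, Pdpn giving most of the P sum), and to 1.60 to 7.15 and 2.06 to 4.18 in A375 (3 of 8). Single fibroblast markers differed in Yumm1.7: of 5 tested, 4 were at least 2-fold higher in S input and none lower, with Dpt at 0.926 TPM in P input and 35.2 in S input, Col1a2 at 12.4 and 74.1, and Pdpn at 214 and 67.3. For keratinocyte markers the sums were 37.4 to 49.7 TPM in A375 P and 44.4 to 75.3 in S (2 of 6 measured, nearly all from KRT10), and 2.23 to 3.34 and 0.203 to 1.11 in Yumm1.7 (1 of 6). Leukocyte markers gave 0.986 to 3.36 and 0.407 to 1.91 TPM in A375, and 8.18 to 15.04 and 0.356 to 0.849 in Yumm1.7, each from 1 of 6 genes. The 1 endothelial marker measured of 6 was at most 0.676 TPM in A375 and 1.996 in Yumm1.7. The part of other cell types in the results was not tested.

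Stretches upstream of 3 of the human genes that hold motif matches are printed as examples, and not all genes of the set hold one. They are from RefSeq (GRCh38.p14), on the gene's own strand, 5′ to 3′, and leave out annotated exon bases. Capitals mark motif matches. RAD54L is shown from chr1:46247508-46247687 (plus strand), BLM from chr15:90717147-90717326 (plus strand) and FANCA from chr16:89816658-89816837 (minus strand).
RAD54L: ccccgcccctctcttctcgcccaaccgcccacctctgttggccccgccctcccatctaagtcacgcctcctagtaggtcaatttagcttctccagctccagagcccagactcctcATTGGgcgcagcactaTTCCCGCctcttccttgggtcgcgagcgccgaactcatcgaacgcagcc
BLM: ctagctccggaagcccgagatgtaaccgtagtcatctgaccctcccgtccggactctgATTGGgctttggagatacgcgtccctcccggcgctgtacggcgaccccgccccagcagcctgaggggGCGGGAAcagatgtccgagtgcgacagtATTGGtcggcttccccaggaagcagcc
FANCA: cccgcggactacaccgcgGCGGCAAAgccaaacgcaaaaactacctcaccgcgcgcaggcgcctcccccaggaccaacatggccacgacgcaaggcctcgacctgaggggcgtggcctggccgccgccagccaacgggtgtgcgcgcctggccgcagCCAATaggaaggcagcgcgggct

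In all, 8 of the 9 genes matched the promoter table, with 10 promoters. In the 250 bases before the start, on either strand, CCAAT (the box bound by the factor NF-Y) was found in 6 of the 10, in 5 genes: BLM, BRCA1, FANCA, RAD51AP1 and RAD54L. It was in 32.0% of all 35116 promoters. An E2F-like site (any of 4 forms, TTTGGCGC or TTTCCCGC or TTTCGCGC or TTTGCCGC) was found in 1, that of FANCA, against 2.79% of all promoters. The shorter core TTCCCGC, searched after the sequences were seen and in part the same letters as TTTCCCGC, was in 5 of the 10, in the genes BLM, BRCA1, RAD51AP1 and RAD54L, against 5.52% of all. The stretches searched for the RAD54L promoters (46247438 to 46247687 and 46247513 to 46247762) overlap. The same TTCCCGC match and the same CCAAT match lie in both and are counted for each, so the counts by gene are the plainer ones. TTTGAA (the CHR element of late cell cycle promoters) was in 0 of the 10 and in 13.3% of all. Of the matched genes, BARD1, BRCA2 and FANCD2 held none of these motifs. A match describes letters only and is not a binding site.

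In A375, all 9 genes were lower in S than in P in each fraction. Their summed TPM was 219 in input of P and 13.6 in input of S, 54.8 and 21.7 in monosomes, and 248 and 15.4 in polysomes. For each of the 9 genes all 3 P libraries lay above all 3 S libraries, as they did for 12.7% of the genes tested. The gap was wide in input and polysome RNA and narrow in monosome RNA, where the P sum was below and the S sum above those of the other fractions.

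**Figure D1:**
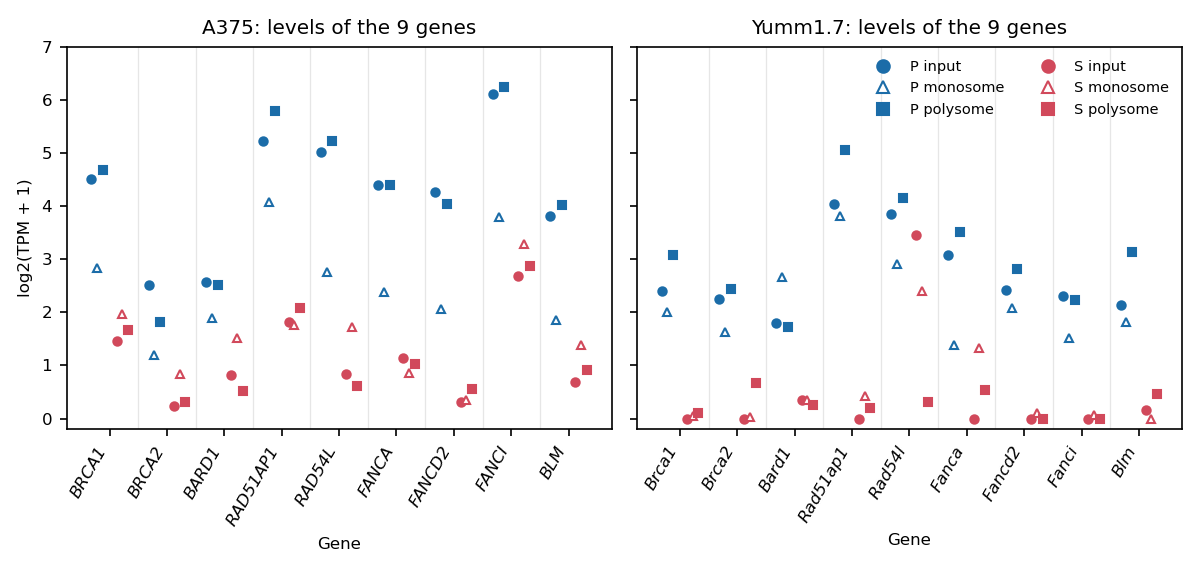
Level of each of the 9 genes as log2(TPM + 1) in the 6 libraries of A375 (left) and Yumm1.7 (right), with P in blue and S in red, input as circles, monosomes as open triangles and polysomes as squares. In A375 every P point lies above every S point of the same gene, and in Yumm1.7 this holds for 8 of the 9 genes, Rad54l being the exception.

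BRCA1 (chromosome 17, 43044295 to 43170245 in GRCh38) is the ubiquitin ligase subunit that helps prepare broken ends. It was at 21.8 TPM in P input, 6.15 in P monosomes and 24.6 in P polysomes, and at 1.75, 2.89 and 2.18 in the same fractions of S. P was 12.4-fold above S in input, 2.13-fold in monosomes and 11.2-fold in polysomes, and the 2 states did not overlap. BARD1, its obligate partner (chromosome 2, 214725646 to 214809711), had 4.97, 2.72 and 4.73 TPM in P against 0.764, 1.86 and 0.436 in S. It stood at a lower level than BRCA1 in each of the 6 libraries, and its 6.51-fold difference in input was the smallest of the 9. BRCA2 (chromosome 13, 32315474 to 32400266), the mediator of strand exchange, was the lowest of the 9 in every P library at 4.69, 1.30 and 2.54 TPM, and was at 0.182, 0.798 and 0.247 TPM in S. All 3 BRCA2 values in S are below 1 TPM, so its 25.8-fold difference in input rests on a very low value.

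The helpers of strand invasion were among the more abundant members. RAD51AP1 (chromosome 12, 4538798 to 4560048) was at 36.3, 15.9 and 54.2 TPM in P input, monosomes and polysomes, and at 2.54, 2.40 and 3.22 in S. Its difference in monosomes was -2.35 on the log2(TPM + 1) scale relative to the median gene. RAD54L (chromosome 1, 46247688 to 46278473), a DNA translocase, went from 31.5 to 0.779 TPM in input, from 5.79 to 2.31 in monosomes and from 36.3 to 0.533 in polysomes. That is 40.4-fold lower in S input and 68.1-fold lower in S polysomes but 2.51-fold lower in monosomes. Exons of RAD54L share bases with LRRC41 on the other strand, and reads from either cannot be told apart where the strand setting is not known. LRRC41 was at 37.7 and 35.2 TPM in P and S input and did not follow RAD54L.

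Of the Fanconi genes, FANCI (chromosome 15, 89243949 to 89317261) was at 68.7, 12.9 and 74.4 TPM in P and at 5.47, 8.74 and 6.37 in S. It was the most abundant of the 9 in all 3 S libraries, where it alone stayed above 5 TPM. Its partner FANCD2 (chromosome 3, 10026414 to 10101930) was at 18.2, 3.21 and 15.5 TPM in P and at 0.238, 0.280 and 0.475 in S, that is 76.6-fold lower in input, 11.4-fold lower in monosomes and 32.7-fold lower in polysomes. All 3 S values are below 0.5 TPM, so these ratios rest on very low levels. With 1 TPM added, RAD54L differed more than FANCD2 in input (-3.99 and -3.76) and RAD51AP1 more in monosomes (-2.35 and -1.76). FANCA (chromosome 16, 89737549 to 89816657), of the core complex, was at 20.1, 4.24 and 20.0 TPM in P and 1.21, 0.800 and 1.05 in S, a low level in each S fraction. BLM (chromosome 15, 90717327 to 90816165) was at 13.2, 2.60 and 15.3 TPM in P and 0.614, 1.63 and 0.875 in S. Like BARD1, BRCA1, BRCA2, FANCI and RAD54L, it was higher in S monosomes than in S input or S polysomes. Exons of FANCI also share bases with POLG, those of FANCA with ZNF276, those of FANCD2 with FANCD2OS and those of BRCA1 with RPL21P4 and AC060780.1.

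Relative to the median gene, all 9 were at least 2-fold lower in S input (median -3.06, from -3.99 for RAD54L to -1.56 for BARD1), where 16.2% of all tested genes were. In polysomes it was again all 9 (median -3.15, from -4.40 to -1.30), against 15.6% of genes. In monosomes 4 of the 9 were (RAD51AP1, FANCD2, FANCA and RAD54L, median -0.92), against 13.2% of genes. The same 4 were at least 2-fold lower in all 3 fractions, as were 6.33% of genes. Ranked among the tested genes of each library, the median member was at percentile 59.3 in P input and 3.98 in S input, at 39.6 and 20.2 in monosomes, and at 57.7 and 6.80 in polysomes. FANCI kept the highest rank, from percentile 84.2 to 30.8 in input, and BRCA2 the lowest, from 23.2 to 0.973.

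In Yumm1.7, 8 of the 9 genes had a mean below 1 TPM over the S libraries, and 1, Rad54l, did not. The summed TPM was 58.7 in input of P and 10.4 in input of S, of which Rad54l alone gave 10.05. Summed levels were 39.3 and 6.63 TPM in monosomes and 91.4 and 2.06 in polysomes. Of the 27 member values in S, 24 were below 1 TPM and 9 were listed at 0, whereas none of the 27 in P was below 1. For 8 genes all P libraries lay above all S libraries, but that was so for 45.5% of the genes tested in this line. A listed 0 can be a failed estimate, so no TPM ratio is given against it. The log2 differences of TPM + 1 do use those zeros, which 6 of the 9 genes have in S input, 1 in S monosomes and 2 in S polysomes.

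Brca1 had 4.26, 3.01 and 7.46 TPM in P input, monosomes and polysomes, and was listed at 0 in S input, with 0.0398 and 0.0682 TPM in S monosomes and polysomes. Bard1 was at 2.48, 5.32 and 2.31 TPM in P and at 0.270, 0.277 and 0.187 in S. It was the only member whose P monosome value exceeded both other P values. Brca2 had 3.78, 2.10 and 4.42 TPM in P. Its S input value is listed as 0, and it had 0.0195 TPM in S monosomes and 0.590 in S polysomes, the highest of the 9 in that library. In P, Brca1 and Brca2 thus stood within a factor of 2 of each other in every fraction, unlike in A375.

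Rad51ap1 led the set in P at 15.5, 13.1 and 32.2 TPM, and was listed at 0 in S input and at 0.351 and 0.145 TPM in S monosomes and polysomes. Rad54l was next in P at 13.5, 6.54 and 16.9 TPM, and in S it had 10.05 TPM in input, 4.32 in monosomes and 0.239 in polysomes. Its input and monosome levels in the 2 states are within 1.35-fold and 1.51-fold, while its polysome level was 70.4-fold lower in S. Rad54l ranked at percentile 50.04 of P input and 60.8 of S input, and in polysomes at 44.8 and 4.70. With 1 library each, whether this pattern would recur was not tested. Lrrc41, the mouse gene of the name that overlaps RAD54L in the human annotation, was at 9.50, 8.45 and 21.8 TPM in P and 0.288, 21.6 and 10.5 in S. Both genes were highest in polysomes among the P libraries, while in S input Lrrc41 was at its lowest and Rad54l was not.

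Fanca stood at 7.45, 1.62 and 10.5 TPM across the P fractions. Its S input value is listed as 0, with 1.501 TPM in S monosomes and 0.443 in S polysomes. Its monosome values in the 2 states were nearly level (1.08-fold). Fancd2 had 4.34, 3.24 and 6.05 TPM in the P fractions, was listed at 0 both in S input and S polysomes, with 0.0764 TPM in S monosomes. Fanci had 3.93, 1.86 and 3.72 TPM in P and the same 2 zeros in S, with 0.0436 TPM in S monosomes. The member that was most abundant in A375 was thus among the low ones in Yumm1.7. Blm was at 3.42, 2.54 and 7.82 TPM in P and at 0.116 in S input, listed at 0 in S monosomes and 0.383 in S polysomes.

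Relative to the median gene, 7 of the 9 were at least 2-fold lower in S input (median -1.37), against 22.3% of all tested genes. The exceptions were Bard1 at -0.52 and Rad54l at 0.54. In monosomes 7 of the 9 were lower (median -1.61) against 24.0% of genes, the exceptions being Fanca at 0.14 and Rad54l at -0.29. In polysomes 6 of the 9 were (median -1.29) against 22.5% of genes, with Brca2 at -0.24, Fanci at -0.71 and Bard1 at 0.05 short of it. Brca1, Blm, Fancd2 and Rad51ap1 were lower in all 3 fractions, as were 11.7% of genes. Rad51ap1 showed the widest difference of the 9 in each fraction (-3.11, -3.17 and -3.33). Adding 1 TPM compresses the differences of genes that start near 4 TPM, as most of the others do. As deposited, without reference to the median gene, 8, 7 and 9 of the 9 were at least 2-fold lower in input, monosomes and polysomes. On that scale the median gene itself was at -0.94, -0.21 and -1.53, so in polysomes most tested genes were past 2-fold as well. The share of all genes as deposited was not counted, and these counts hold the shift of the whole library.

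**Figure D2:**
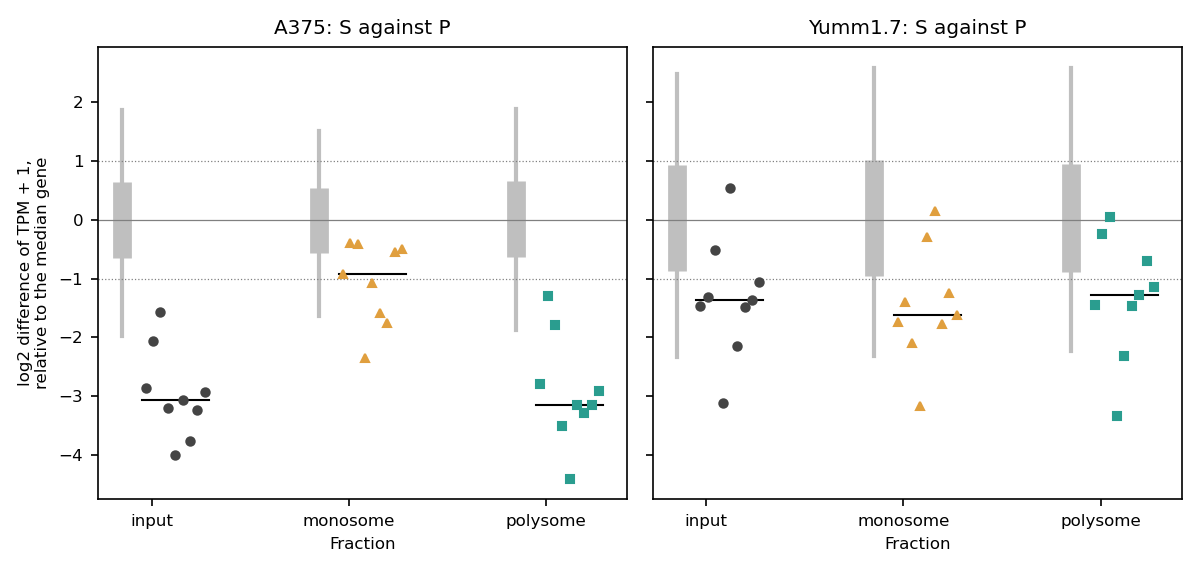
S against P in each fraction, as the log2 difference of TPM + 1 relative to the median gene, with 1 point per gene of the 9, a black line at their median, and grey bars for all tested genes (thick from the 25th to the 75th percentile, thin from the 5th to the 95th). In A375 the medians are -3.06, -0.92 and -3.15 in input, monosomes and polysomes, and in Yumm1.7 -1.37, -1.61 and -1.29.

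Where on the gradient the mRNAs sat also differed between the states in A375. In P, each of the 9 had a higher TPM in polysomes than in monosomes, from 1.74-fold for BARD1 to 6.27-fold for RAD54L. In S, 6 of the 9 were lower in polysomes than in monosomes: RAD54L (0.231 times the monosome TPM), BARD1 (0.234), BRCA2 (0.310), BLM (0.538), FANCI (0.729) and BRCA1 (0.755). The other 3 were FANCA (1.31), RAD51AP1 (1.34) and FANCD2 (1.696). How many of all tested genes were higher or lower in polysomes was not counted, so these counts describe the 9 only.

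Most genes had more TPM in polysomes than in monosomes in both states (median gene 1.05 on the log2 scale in P and 0.67 in S), so the values relative to it are smaller in P. With TPM rescaled without mitochondrial genes, the median gene was at 0.12 in P and -0.27 in S, so its direction in S turns. Mitochondrially encoded RNA took 28.2% of P monosomes and 2.23% of P polysomes, and 35.0% of S monosomes and 9.15% of S polysomes. Relative to the median gene the 9 had a median of 0.92 in P, and 3 of them (RAD54L, FANCI and BLM) were at least 2-fold higher in polysomes, against 19.1% of genes. As deposited, 7 of the 9 were, but on that scale the median gene, at 1.05, was past 2-fold too. BARD1 and BRCA2, at -0.43 and -0.42, were on the other side of the median gene. In S the median was -1.07, and 5 of the 9 were at least 2-fold lower (RAD54L, BARD1, BRCA2, BLM and FANCI), against 16.7% of genes, while as deposited 1 was. The change of the ratio from P to S, set against the median gene's own change, had a median of -1.52 and was at least 2-fold downward for 8 of the 9, from -3.28 for RAD54L to -1.11 for RAD51AP1, against 7.88% of genes. BRCA2 was the one short of it at -0.86. The change was not particular to the 9. Of 15 proliferation genes (cyclins, replication licensing and nucleotide synthesis), 14 were at least 2-fold downward and none upward (median -1.94). Of 19 further strand exchange and mediator genes, 4 were downward and 3 upward (median -0.55). As deposited, all 9 were past 2-fold, with the median gene's own change at -0.29. The shares of all genes as deposited were not counted for these ratios. The S values behind these ratios are low: 3 of the 9 in monosomes and 5 of the 9 in polysomes are below 1 TPM.

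**Figure D3:**
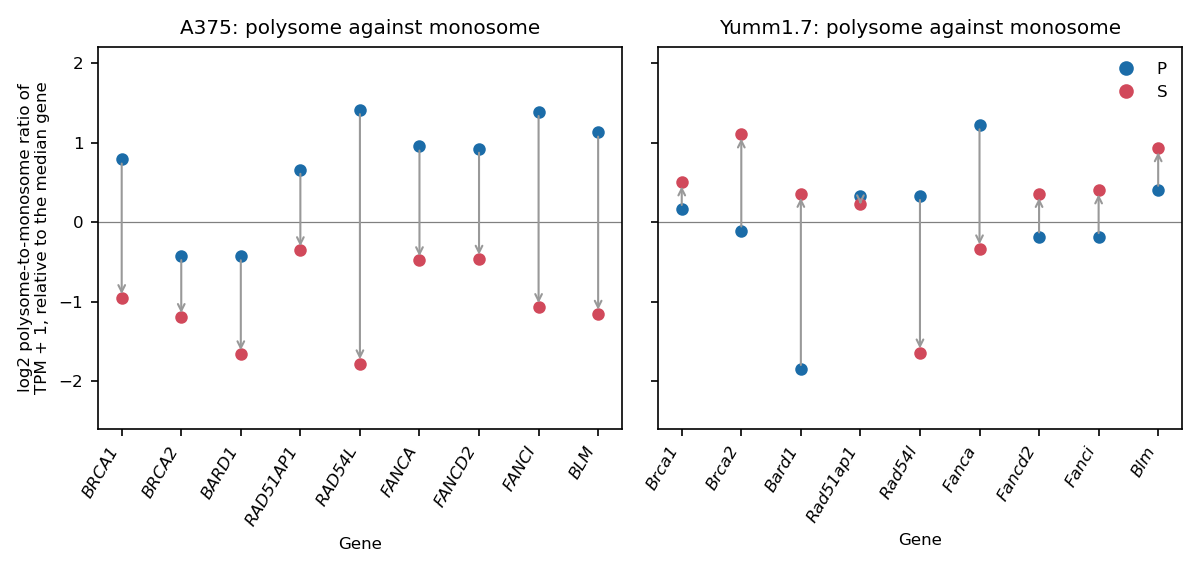
Polysome-to-monosome ratio of each gene as the log2 ratio of TPM + 1 relative to the median gene, in P (blue) and S (red), with an arrow from P to S. In A375 all 9 arrows point down, from a median of 0.92 in P to -1.07 in S, whereas in Yumm1.7 they point both ways and rest on S levels mostly below 1 TPM.

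Length of the coding sequence did not order the 9 on the gradient. It runs from 335 codons for RAD51AP1 to 3418 for BRCA2 (GENCODE v29), with BRCA1 at 1884, FANCD2 at 1471, FANCA at 1455, BLM at 1417, FANCI at 1268, BARD1 at 777 and RAD54L at 747. Across 10912 A375 genes with a coding sequence, Spearman's rho between its length and the P ratio was 0.34, and across the 9 it was -0.22. For the S ratio rho was 0.12 across all and 0.08 across the 9, and for the change from P to S -0.34 and 0.23. Across all genes a longer coding sequence thus went with a more downward change. The part of length in the change of the 9 was not tested. In P, BRCA2, the longest, was less polysomal than the median gene, and RAD54L, next to the shortest, had the highest ratio of the 9 (1.41). In S, RAD54L had the lowest ratio (-1.78), and BRCA2 was at -1.19. Genes are not independent replicates, and all points share the same libraries.

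In Yumm1.7 the ratios gave no common direction. In P the median of the 9 was 0.16 relative to the median gene, with 1 at least 2-fold higher (Fanca at 1.22, against 14.0% of genes) and 1 lower (Bard1 at -1.85, against 13.4%). In S the median was 0.36, with Brca2 (1.10) higher, against 13.2% of genes, and Rad54l (-1.64) lower, against 10.9%. A gene listed at 0 in both S fractions takes 0.46 on this scale by construction, as the median gene was at -0.46. The S median of the 9 lies near that value, so it says little about where their mRNAs sat. The change from P to S had a median of 0.57 relative to the median gene and -0.85 as deposited, so its sign depends on the reference. Bard1 (2.25) and Brca2 (1.25) were at least 2-fold upward, against 17.3% of genes, and Rad54l (-1.93) and Fanca (-1.51) downward, against 12.6%. Among the 4, only the Rad54l change has an S value above 2 TPM behind it.

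Other genes of the pathway were in part lower too. In A375 input, where 16.2% of all genes were at least 2-fold lower, 11 of 19 further strand exchange and mediator genes were at least 2-fold lower and none higher (median -1.43). They include XRCC2 (23.0 TPM in P and 0.760 in S), needed for HR, and BRIP1, the helicase partner of BRCA1 (7.17 and 0.575). PALB2, which joins BRCA1 to BRCA2, was at 8.49 and 2.07. Of 17 genes for BRCA1 partners and end resection, 8 were lower and 1 higher (median -0.80), with the nuclease gene EXO1 at 30.6 and 0.798 TPM and RBBP8, which encodes CtIP, at 37.7 and 12.4. Of 16 genes of the Fanconi core complex and its ubiquitin cycle, 8 were lower and 1 higher (median -0.86). UBE2T, the ubiquitin-conjugating enzyme for FANCD2 and FANCI, was at 133 and 12.2 TPM, USP1, which takes the ubiquitin off, at 42.8 and 10.3, and FANCB at 13.3 and 0.653. Downstream nucleases and translesion polymerases were mostly within 2-fold (3 of 16 lower and 1 higher, median -0.30), the higher one being the polymerase gene POLK at 3.38 and 9.04 TPM. The nuclease subunit gene EME1 went from 35.1 to 3.51 TPM, and POLQ, named after its values were seen, from 11.9 to 0.212. BLM's complex and the other RecQ helicases had 5 of 8 lower (median -1.12), with RMI2 at 41.7 and 4.06 TPM, RMI1 at 11.96 and 1.94 and TOP3A at 15.2 and 6.90.

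Of 16 genes of the ATR checkpoint and the single-strand binding protein RPA, 7 were lower in A375 (median -0.90), among them CHEK1 (20.2 and 1.15 TPM). Of 6 anti-recombinases, 4 were lower (median -1.66). End joining, the repair route that needs no template, had 2 of 12 lower and none higher (median -0.25), with XRCC6 at 534 and 193 TPM. Mismatch repair had 3 of 7 lower (median -0.49), base excision repair 8 of 19 lower and 1 higher (-0.52) and nucleotide excision repair 3 of 17 lower (-0.70). The background in A375 input was 16.2% lower and 15.6% higher. The proliferation reference (cyclins, replication licensing and nucleotide synthesis genes) had all 15 lower with a median of -3.35, close to the -3.06 of the 9, with MKI67 at 39.1 and 0.520 TPM and PCNA at 383 and 56.5. The lists were chosen with earlier results of these data known, and differences between them were not tested.

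In Yumm1.7 input the same lists had 5 of 18 lower and 1 higher for strand exchange (median -0.68), 5 of 16 and 3 for BRCA1 partners (-0.26), 8 of 16 and 1 for the Fanconi core (-1.09) and 5 of 14 and 2 for nucleases and translesion synthesis (-0.12). Ube2t had 23.5 TPM in P, with a listed 0 in S, and Usp1 was at 31.5 and 0.178, whereas the structure-specific nuclease gene Mus81 was higher in S (11.9 and 27.9). Palb2 (2.38 TPM in P) and Brip1 (2.998) were listed at 0 in S input. The BLM group did not stand low (2 of 8 lower, median 0.14), with Top3a at 5.81 and 5.28 TPM and Rmi1 at 9.85 and 6.45. Of the ATR and RPA genes 9 of 16 were lower and 1 higher (-1.85), of the anti-recombinases 3 of 4 (-2.06) and of mismatch repair 3 of 6 (-1.15). Base excision repair had 7 of 17 lower and 1 higher (-0.24), nucleotide excision repair 5 of 16 and 4 (-0.25). End joining had 1 of 10 lower and 4 higher (0.21), with the end joining factor gene Paxx at 8.90 and 45.5 TPM. The background was 22.3% lower and 23.1% higher, and the proliferation reference had all 15 lower (-4.22, Mki67 at 20.1 TPM and listed at 0, Pcna at 310 and 7.68). Unlike in A375, that median lay well below the -1.37 of the 9.

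**Figure D4:**
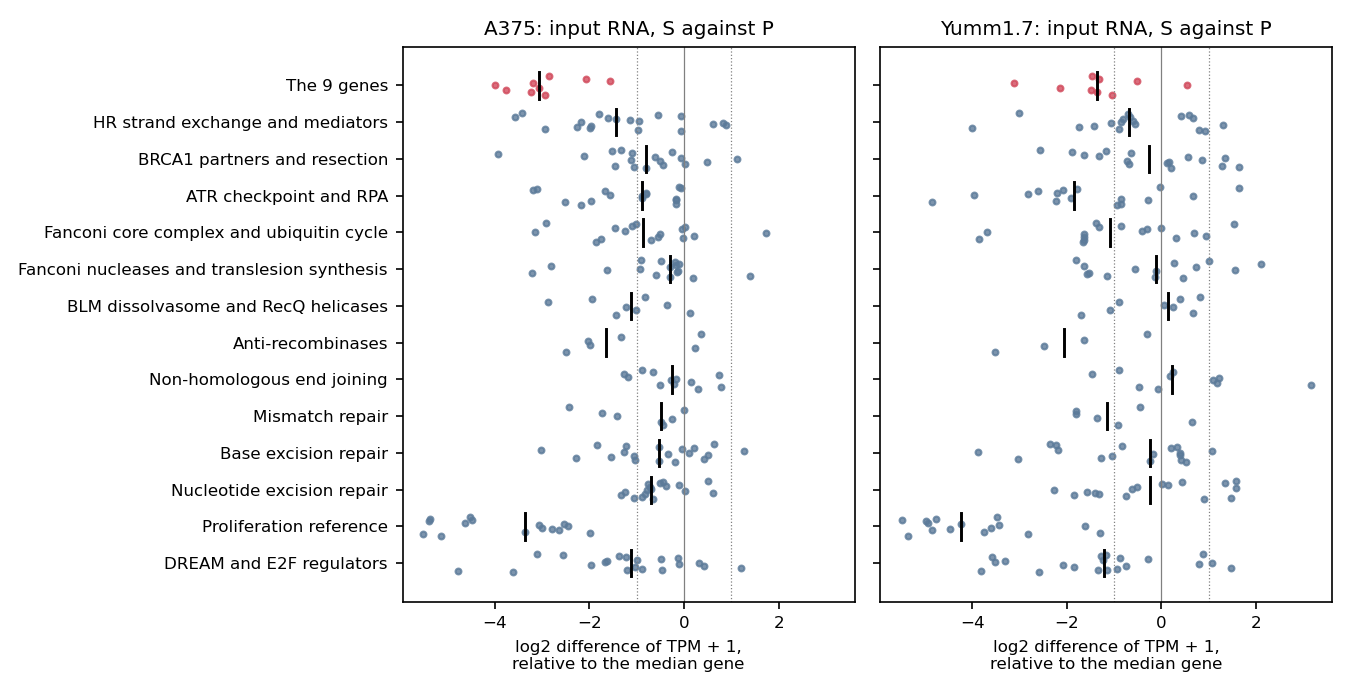
Input RNA, S against P, as the log2 difference of TPM + 1 relative to the median gene, with 1 point per gene, the 9 genes in red, related lists in blue, a black bar at each list's median and dotted lines at 2-fold. In A375 the 9 genes (median -3.06) lie beside the proliferation reference (-3.35), while end joining (-0.25) lies near the median gene. In Yumm1.7 the 9 genes (-1.37) lie apart from the proliferation reference (-4.22), with end joining at 0.21.

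A further list held the E2F factors, the complexes that repress them in resting cells, and MYBL2 and FOXM1, which are neither. In A375 input 11 of its 20 genes were lower and 1 higher (median -1.12), against 16.2% and 15.6% of all genes. In Yumm1.7 input 12 of 20 were lower and 2 higher (-1.21), against 22.3% and 23.1%. MYBL2 was at 116 and 2.71 TPM in A375 P and S input, and FOXM1 at 60.5 and 3.35. E2F1, an activator of S-phase genes, was at 27.6 and 1.89 TPM in A375 P and S input, but at 32.3 and 31.1 in Yumm1.7. In all 3 Yumm1.7 S libraries E2f1 was at 30.2 TPM or above. Among the 12 lower genes, Tfdp1 was at 93.2 and 3.29 TPM in Yumm1.7 P and S input, and E2f4 at 32.0 and 0.446. Mybl2 (25.8 TPM in P input) and E2f8 (18.0) were listed at 0 in S input. The part of these factors in the levels of the 9 was not tested. RBL2, a pocket protein of the repressor complex, was at 21.7 and 25.5 TPM in A375 input and at 4.29 and 0.634 in Yumm1.7.

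The 9 genes followed each other closely in A375. Over the 6 libraries, Pearson's r of log2(TPM + 1) between members was 0.97 in the median of 36 pairs, from 0.89 for BRCA2 with RAD51AP1 to above 0.99 for FANCI with BLM. In Yumm1.7 the median was 0.88, from 0.50 for Brca2 with Rad54l to above 0.99 for Rad51ap1 with Fancd2. The points share state and fraction, so these values describe 6 libraries and carry no p. The genes most like the mean of the 9 in A375, among 9125 candidates, were BUB1, H2AZ1, MCM8, BUB1B and TTK, all with r of at least 0.99. BUB1 was at 43.3, 7.37 and 59.1 TPM in P and 1.10, 2.04 and 0.980 in S. In Yumm1.7, among 7632 candidates, they were Hprt, Mtbp, Xpot, Arid5a and BC030867, again with r of at least 0.99. Mtbp was at 18.7, 8.62 and 29.2 TPM in P and 0.464, 0.817 and 0.233 in S. No gene was in both sets of 5.

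Single members had other nearest genes. In A375 these were BUB1B for BRCA1, ASPM for BRCA2, PHF19 for BARD1, ETV5 for RAD51AP1, INPP5F for RAD54L, SMS for FANCA, H2AZ1 for FANCD2, EIF5 for FANCI and KIF15 for BLM, with r from 0.98 up. For Rad54l in Yumm1.7 the nearest was Wrb (r 0.99), which lay between 10.1 and 11.8 TPM in all 6 libraries, so a high r here does not mean a difference of like size.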

How the data were processed

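The deposited values are TPM per gene, in 1 table per line, made by the authors from poly(A)-selected, randomly primed libraries per the labels' protocols. The submitters' processing notes name GRCh38 (hg38) and GRCm38 (mm10). For the aligner, quantifier, annotation and strand, nothing is stated in the sources used here. TPM keeps no depth, so the number of reads behind a value is unknown and no interval could be given.

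From these values, log2(TPM + 1) differences were computed (Python 3.11.15, pandas 2.3.3, numpy 2.4.6), centred on the median gene, over genes whose mean across the 6 libraries of a line reached 1 TPM. The code was tested on simulated data. Each group has 1 library, so no test was made. The members and the lists were chosen with earlier results of these data known. Named genes are the 9 members, a fixed set of 11 (1 of which is not reported here), up to 4 genes per list with the largest input difference and a mean of at least 5 TPM, of which only some are printed, and the most correlated genes. Genes that share exon bases with a member and markers of other cells are named where a value rests on them. Human coordinates and coding lengths are from GENCODE v29. Promoters are from RefSeq. No mouse annotation was used here. Alternatives were the pseudocount, the minimum, the centring, the scaling (without centring) and, added later, the choice of members.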

Additional observations from a re-analysis of the deposited data

Results flagged for a closer look

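For 9 of 36 pairs of values (9 genes in 4 S against P contrasts) the 2 lines lay on opposite sides of the median gene, with at least 1 of them past 2-fold. The difference between the lines was not tested, since each value comes from single libraries. RAD54L in input was at -3.99 in A375 and 0.54 in Yumm1.7, a difference of 4.53. FANCA in monosomes was at -1.58 and 0.14 (difference 1.72), and BARD1 in polysomes at -1.79 and 0.05 (1.84). The other 6 concern the change of the polysome-to-monosome ratio, downward in A375 and upward in Yumm1.7 relative to the median gene. The upward direction depends on that reference, whose own change was -1.42 in Yumm1.7: as deposited, Bard1 alone of these 6 went up (0.83), and the others lay between -1.04 and -0.17. Their differences between the lines were 3.57 for BARD1, 3.18 for FANCI, 2.94 for BLM, 2.22 for BRCA1, 2.11 for BRCA2 and 2.06 for FANCD2. The Yumm1.7 S values behind these 6 are all below 1 TPM.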

How the results depend on the processing

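Of 90 medians recomputed under the alternatives, 65 stayed within 1.5-fold of the value in the text and 25 did not, while no median past 2-fold changed sign. With a pseudocount of 0.1 TPM, the S against P medians were -3.73 in input and -3.74 in polysomes of A375, and -4.22, -3.96 and -3.44 in input, monosomes and polysomes of Yumm1.7. With 5 TPM they were -1.88 and -1.91 in A375 and -0.29, -0.47 and -0.26 in Yumm1.7, where 1, 1 and 2 genes were then at least 2-fold lower. As deposited, the polysome-to-monosome medians of A375 were 1.97 in P and -0.40 in S. In Yumm1.7 the medians as deposited were -2.30 in input, -2.82 in polysomes, 1.08 for the P ratio and -0.85 for its change. Rescaled without mitochondrial genes they were -2.55, -2.88, 0.81 and -0.61. The rescaled values, like those as deposited, are not relative to the median gene. After rescaling, that gene was itself at -0.74, -1.16, 0.62 and -1.15 in the same order. A minimum of 5 TPM left 2 genes in Yumm1.7, with medians of -2.73 in polysomes, -0.67 for the S ratio and -0.82 for its change. The 4 A375 genes that share no exon bases with another gene had medians of -2.35 in polysomes and 0.12 for the P ratio. The Yumm1.7 change for Brca2 went to -0.17 as deposited. For polysomes against monosomes within A375 P, genes at least 2-fold higher were 7 of 9 with no minimum, 5 rescaled and 2 with 5 TPM added (3 in the text). For polysomes against monosomes within A375 S, genes at least 2-fold lower were 2, 6 and 0 (5 in the text). The rescaled counts (5 and 6) are not relative to the median gene, which was then at 0.12 in P and -0.27 in S. The shares of all genes under these alternatives were not counted. Without RAD54L no median left that range. The cause of these shifts was not tested beyond the construction of each alternative. No paired analysis was possible because each group has 1 library. Unknown depth limits every S value below 1 TPM.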
